A study of Homo sapiens with 12 samples.

Results

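TKO1 and TKO2 are separate clones of KMS11, a human multiple myeloma line with a t(4;14) translocation, and the labels give both the same genotype, an inactivated overexpressed MMSET allele. Their 6 arrays, 3 per clone, were chosen by sample title out of 12 arrays in the series and are compared here as TKO1 minus TKO2. The other lines are NTKO, in which the wild-type MMSET allele had been inactivated and the overexpressed one kept, and the parental cells (WT), which carry both alleles, with 3 arrays each. All lines were grown in RPMI medium, and the labels name no treatment. The rearranged allele had been removed from the TKO cells by homologous recombination, which leaves a wild-type MMSET copy, and each name stands for 1 clone, so a feature of a clone and a feature of its genotype cannot be told apart within that clone. The labels do not say whether the replicates of a line were separate cultures, and each p-value therefore reflects array-to-array spread, which may be technical.

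MMSET, now named NSD2, dimethylates histone H3 at K36. In t(4;14) myeloma the translocation puts the gene under control of the immunoglobulin heavy chain locus, and the spread of this mark limits EZH2, the enzyme of Polycomb repressive complex 2 that methylates K27 on the same histone tail to keep genes silent. Clones raised from single cells of a tumour line carry forward whatever the founding cell held, including its chromosome content and its silenced genes. Comparing clones of equal genotype therefore measures how far lines separate apart from the allele that was inactivated.

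Expression was read on Illumina HumanWG-6 v3 BeadChips, which give a fluorescence intensity per probe. Values below are log2 intensities after background correction and quantile normalization, so a difference of 1 is 2-fold, and a probe counts as detected on an array where its detection p-value against negative control beads is under 0.05. Mean intensity of the TKO arrays ran from 181 to 225, with 9083 to 9978 genes detected per array. Within TKO1 the arrays correlated across genes at 0.984 to 0.986, within TKO2 at 0.983 to 0.988, while pairs of 1 TKO1 and 1 TKO2 array lay between 0.973 and 0.989, so that the ranges overlapped. Of 22 plasma cell genes 18 were expressed in at least 1 clone (CD38, SLAMF7, CD27 and FCRL5 were not detected), whereas 1 of 13 T and NK cell genes, 1 of 13 myeloid genes, 1 of 9 erythroid and megakaryocyte genes and 3 of 13 stromal and epithelial genes on the array were. None of these 6 markers of other cells was called, although EPCAM, an epithelial adhesion gene (0.80), passed with the replicate block described below. In bulk samples fewer cells of a type and less RNA per cell cannot be told apart. NTKO replicate 2 stood apart from its line, and NTKO values below are therefore given by array where that replicate lies apart.

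NSD2, the targeted gene, did not differ detectably between the clones. Its 1 usable probe read low in every line, also in those that keep the overexpressed allele. It gave 5.71, 5.58 and 6.07 in TKO1 and 5.46, 5.44 and 5.76 in TKO2, against 6.09, 6.29 and 6.43 in NTKO and 6.56, 6.18 and 6.35 in WT. The clones overlapped, and both lay below the WT mean. The difference was 0.23 ± 0.20 (SE, n = 3 each; limma, adjusted p = 0.761), with a 95% interval from −0.20 to 0.66. The other 3 NSD2 probes were not detected on all arrays of either clone, and nothing in the sources used here places any probe against the disrupted part of the gene. The genes named next were also assayed by quantitative PCR. CA2 (carbonic anhydrase II) read 5.64, 5.45 and 5.26 in TKO1 and 5.91, 6.05 and 5.78 in TKO2, against 9.25 on average in NTKO and 9.58 in WT. The clones did not overlap, but their difference of −0.47 ± 0.19 did not pass (adjusted p = 0.395). CDCA7 (0.14 ± 0.14, adjusted p = 0.795) and the adhesion gene JAM3 (0.14 ± 0.18, adjusted p = 0.845) did not pass either. LTB, which encodes lymphotoxin beta, read 6.33, 7.56 and 5.54 in TKO1 and 5.77, 5.74 and 5.29 in TKO2, was undetected in NTKO and WT, and passed only without TKO1 replicate 3 (difference 1.34, adjusted p = 0.0289, against 0.87 and adjusted p = 0.417 with it). CR2, JAM2 and DLL4 were not detected on all arrays of either clone and were not tested.

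Across the genome the clones parted at few genes. Of 9103 genes tested 115 (1.26%) were called, that is passed at an adjusted p under 0.05, with 62 higher (0.681%) and 53 lower (0.582%) in TKO1, and 63 (0.692%) differed by over 2-fold as well (32 higher, 31 lower). The median absolute difference was 1.04 among the called genes and 0.14 among all genes tested. In all 115 the TKO1 and TKO2 arrays did not overlap, as held for 1410 (15.5%) of all genes (743 or 8.16% higher, 667 or 7.33% lower in TKO1). The 95% intervals reached a median of 0.38 to either side, so that smaller differences were mostly not resolvable with 3 arrays per clone. These intervals are not adjusted for the number of genes, and the smallest difference called was 0.51 (PGK1). Arrays with replicate number 1 or 3 in their titles deviated together (correlation 0.53 for each), and those with number 2 hardly did (0.10). With the replicate number as a block 524 genes (5.76%) passed, 255 higher (2.8%) and 269 lower (2.96%) in TKO1, including all 115 in the same direction. The count also moved with single arrays, to 50 without TKO2 replicate 2, 53 without TKO1 replicate 2, 66 without TKO2 replicate 1, and 175 without either TKO1 replicate 1 or TKO2 replicate 3.

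**Figure D1:**
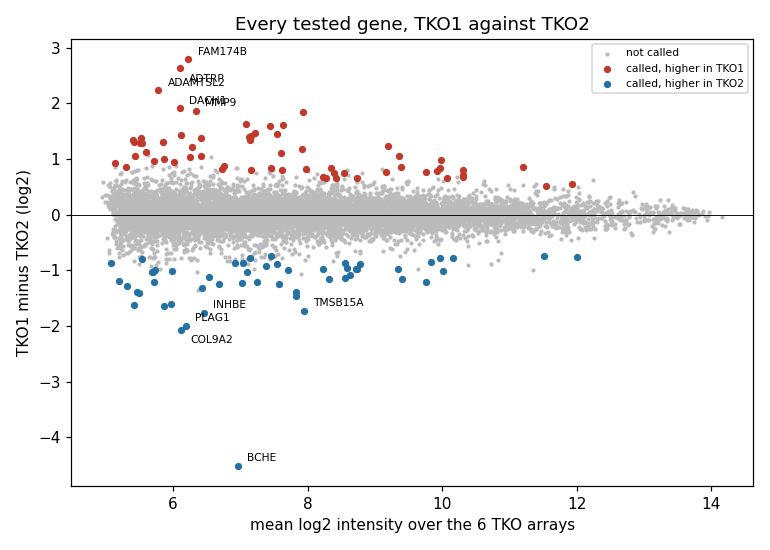
Difference between the clones (TKO1 minus TKO2, log2) against mean log2 intensity over the 6 TKO arrays, 1 point per gene for 9103 genes, with called genes in colour. The 62 genes higher in TKO1 reach 2.79 (FAM174B), and the 53 lower ones reach −4.50 (BCHE), which lies far below the next, COL9A2 at −2.07.

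The gene that separated the clones most was BCHE, which encodes butyrylcholinesterase, a plasma esterase that hydrolyses choline esters. It was detected in TKO2 alone. Its promoter is shown with that of FAM174B, the leading gene in the opposite direction, since they lie at the ends of the difference and differ in base content. Both are 300 bases around the RefSeq transcription start (250 before it, 50 after) on the minus strand in build GRCh38.p14, BCHE at chr3:165837374-165837673 and FAM174B at chr15:92655726-92656025, written 5′ to 3′ with CG dinucleotides, the substrate of DNA methylation, in capitals.
BCHE: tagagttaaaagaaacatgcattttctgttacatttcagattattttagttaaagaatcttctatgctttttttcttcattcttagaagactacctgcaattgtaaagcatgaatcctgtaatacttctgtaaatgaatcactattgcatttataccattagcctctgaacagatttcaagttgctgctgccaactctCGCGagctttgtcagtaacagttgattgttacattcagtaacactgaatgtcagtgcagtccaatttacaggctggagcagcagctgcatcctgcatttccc
FAM174B: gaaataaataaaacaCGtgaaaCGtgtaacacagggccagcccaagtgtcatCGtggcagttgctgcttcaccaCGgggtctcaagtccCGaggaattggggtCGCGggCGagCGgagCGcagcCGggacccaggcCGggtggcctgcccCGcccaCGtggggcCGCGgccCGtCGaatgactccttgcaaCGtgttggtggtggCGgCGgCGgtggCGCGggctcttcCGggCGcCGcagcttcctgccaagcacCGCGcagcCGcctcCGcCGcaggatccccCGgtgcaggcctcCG
The BCHE window holds 2 CG dinucleotides and that of FAM174B 34, where the median over 35116 RefSeq promoters was 14. FAM174B is on the study's list of promoters bound by EZH2 in NTKO but not in TKO cells, and BCHE is on its list of genes that an EZH2 inhibitor raised in KMS11. DNA methylation was not measured here.

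BCHE read 4.71, 4.62 and 4.81 in TKO1 and 8.98, 9.40 and 9.29 in TKO2. It was detected on no array of TKO1, NTKO or WT and on all of TKO2. The TKO1 level was at least 17.9-fold lower than in TKO2, a bound taken against the lowest detected signal, with a fitted difference of −4.50 ± 0.18 (SE, n = 3 each; limma, adjusted p = 5.56e-09). A second BCHE probe gave −3.33. COL9A2, a chain of the cartilage collagen type IX, read 4.98, 5.03 and 5.24 in TKO1 and 7.24, 6.97 and 7.23 in TKO2. It was likewise undetected in NTKO and WT, and only 1 TKO1 array detected it (difference −2.07 ± 0.19, adjusted p = 8.16e-05). CD72, a B cell co-receptor that dampens receptor signalling, read 5.06, 5.15 and 4.93 in TKO1 and 7.08, 6.66 and 6.29 in TKO2 (−1.63 ± 0.22, adjusted p = 0.00124), with NTKO at 6.40, 4.87 and 6.07 and WT at 4.93. These genes were high in TKO2 and at or near the floor of the array in TKO1 and in the parental cells. CD72 was the 1 member called of 6 tested B cell and germinal centre genes (16.7%, against 1.26% of all genes). Of these 6, 4 were higher in TKO1, and the median over the list was 0.42.

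A further set was lower in TKO1 than in all other lines. PLAG1, a zinc finger transcription factor, read 5.46, 5.01 and 5.12 in TKO1 and 7.31, 7.15 and 7.13 in TKO2, against 6.57 in NTKO and 7.32 in WT (3.99-fold lower in TKO1 than in TKO2, adjusted p = 0.000142). ZNF215, an imprinted zinc finger gene, read 5.21, 5.26 and 5.02 in TKO1 and 6.61, 6.92 and 6.77 in TKO2, with NTKO at 7.43 and WT at 7.14 (−1.60 ± 0.19, adjusted p = 0.000503). SPATS2L (−1.45) and the G protein subunit gene GNB4 (−1.38, at least 2.13-fold, undetected in TKO1) followed the same order, with TKO2 between TKO1 and WT. For TMSB15A, an actin-binding thymosin, TKO1 read 7.46, 6.88 and 6.93 and TKO2 8.93, 9.04 and 8.47, both under NTKO (10.96, 9.51 and 10.90) and WT at 11.2 (−1.73 ± 0.20, adjusted p = 0.000503). The tubulin gene TUBB2B gave 7.14 in TKO1 and 8.52 in TKO2, against 11.12, 10.47 and 11.08 in NTKO and 10.3 in WT. TMSB15A and TUBB2B have close copies (TMSB15B and TUBB2A) whose RNA their probes may also take up. INHBE, an activin subunit gene, did not belong to that set, since its TKO1 and WT arrays overlapped. It lay between 4.70 and 6.03 in TKO1 and between 7.14 and 7.57 in TKO2 (−1.76 ± 0.30, adjusted p = 0.00838), but lost its call without TKO2 replicate 2 (adjusted p = 0.0903) and when all 12 arrays shared 1 spread (adjusted p = 0.899). TKO2 stood above WT, at 6.07 on average, and the NTKO arrays scattered, with 5.26 in replicate 2 and 11.7 in replicate 3.

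Among the genes higher in TKO1, ADTRP and ADAMTSL2 were detected in TKO1 alone. ADTRP, which encodes an androgen-dependent membrane hydrolase, read 7.39, 8.14 and 6.74 in TKO1 and 4.84, 4.81 and 4.71 in TKO2. ADAMTSL2, a secreted glycoprotein of the extracellular matrix, read 6.73, 6.81 and 7.16 in TKO1 and 4.72, 4.60 and 4.68 in TKO2. Neither was detected on any TKO2, NTKO or WT array. Their levels in TKO1 were at least 4.89-fold and at least 3.40-fold above TKO2 (fitted differences 2.63 ± 0.28, adjusted p = 0.000249, and 2.23 ± 0.19, adjusted p = 4.57e-05). MMP9, the gelatinase that degrades basement membrane collagen, read 7.18, 7.52 and 7.12 in TKO1 and 5.53, 5.43 and 5.27 in TKO2 (1.87 ± 0.19, adjusted p = 0.000189). It was detected on every array of both clones and on none of NTKO or WT. KITLG, the ligand of the KIT receptor, gave 6.84 in TKO1 and 5.40 in TKO2, with NTKO undetected at 4.92 and WT at 5.15, detected on 2 of 3 arrays.

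FAM174B, a membrane protein gene, parted the clones in opposite directions from the other lines. It read 7.51, 7.44 and 7.92 in TKO1 and 4.99, 4.68 and 4.83 in TKO2, where no array detected it, against 6.17 in NTKO and 5.76 in WT. TKO1 was at least 5.63-fold higher than TKO2 (fitted difference 2.79 ± 0.20, adjusted p = 8.15e-06). KREMEN2, a receptor that restrains WNT signalling together with Dickkopf proteins, was 8.44 in TKO1, 6.83 in TKO2, 5.09 in NTKO and 6.14 in WT (1.61 ± 0.20, adjusted p = 0.000613). CHRNA1, the alpha subunit of the muscle acetylcholine receptor, read 8.71, 9.15 and 8.73 in TKO1 and 7.22, 7.09 and 6.73 in TKO2 (1.85 ± 0.18, adjusted p = 0.000143), and WT lay near TKO2 at 7.29, with NTKO at 5.44, 7.18 and 5.44. DACH1, a developmental transcription factor, was 7.06 in TKO1 and 5.15 in TKO2, with NTKO at 5.10 and WT at 6.59 (1.91 ± 0.20, adjusted p = 0.000176). Its TKO1 arrays all lay above those of WT, and NTKO was as low as TKO2. For other genes the TKO1 and WT arrays overlapped and TKO2 lay below both. TMOD1, which caps actin filaments, was 7.90 in TKO1 and 6.28 in TKO2, with NTKO near TKO2 at 6.39 and WT at 7.98. MBP, named for myelin but also transcribed in blood cells, was 8.24 in TKO1 and 6.64 in TKO2, with NTKO at 8.82 and WT at 8.26. ZNF462 was 8.28 in TKO1 and 6.82 in TKO2, with NTKO at 7.88, 8.77 and 8.20 and WT at 8.32. The desaturase gene SCD5 differed by 1.46 on its main probe and by −0.20 on another probe, so its direction is not settled. Of the 115 called genes 31 had another kept probe. For 2 of these 31 another probe had the opposite sign. Another probe was called the same way for 16 and the opposite way for 0.

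**Figure D2:**
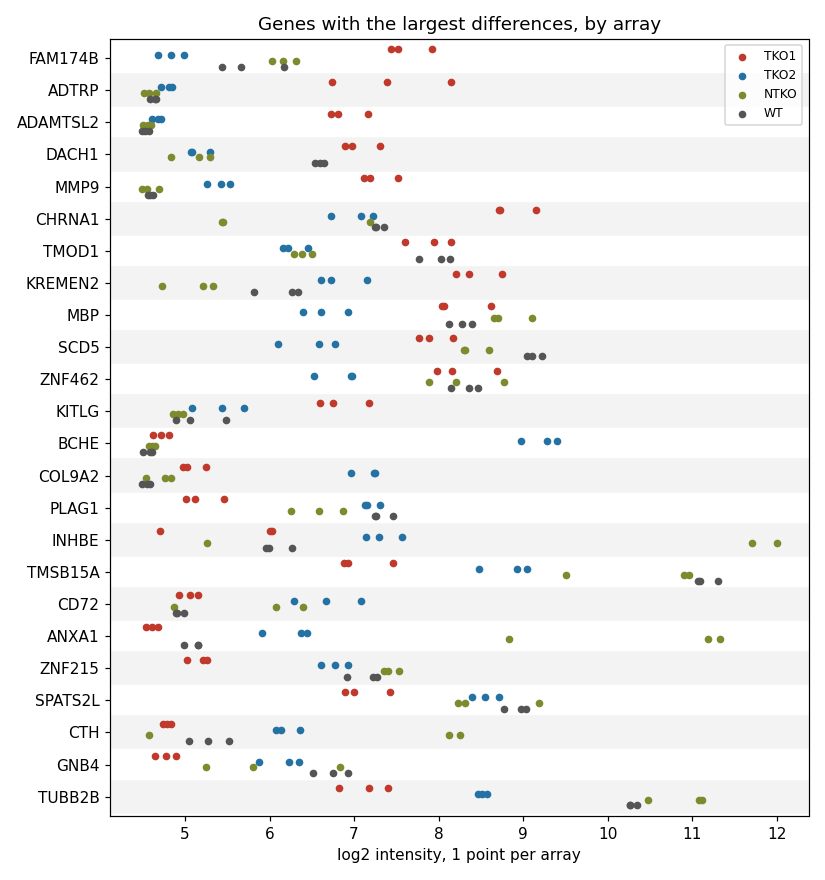
Log2 intensity on each array for the 12 genes highest and the 12 lowest in TKO1 among called genes, with TKO1, TKO2, NTKO and WT in separate rows of points. TKO1 and TKO2 points do not overlap for any of the 24, BCHE is at the floor everywhere but in TKO2 (8.98 to 9.40), and the NTKO arrays scatter for INHBE, ANXA1 and CTH.

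The largest pattern by position was on the long arm of chromosome X. With genes placed in RefSeq order, 181 genes tested between SPIN4 and VAMP7 had a median difference of 0.39 (1.31-fold higher in TKO1), against a median of 0.01 over all genes tested. Of these 159 (87.8%) were higher in TKO1, where 51.6% of all genes were. Of these 181 genes 14 were called higher and 1 lower, or 8.29% against 1.26% of all genes. With the replicate block 78 were higher and 4 lower, where 2.8% and 2.96% of all genes were. The median over the arm, relative to the mean of the 6 TKO arrays, was 0.20, 0.18 and 0.19 in TKO1 and −0.24, −0.12 and −0.19 in TKO2. These per-array values did not overlap, and since the arm was picked out for its median they are given as a description with no test. The shift began within the arm's first bin of 25 genes and did not reach the short arm, where 129 genes from PLCXD1 to ZXDA had a median of 0.02 with 1 called higher and 1 lower.

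Relative to WT, the median over the X long arm was 0.16, 0.20 and 0.14 in TKO1 and −0.27, −0.15 and −0.22 in TKO2, against 0.16, 0.17 and 0.19 in NTKO and 0.05, −0.01 and −0.03 in WT. TKO2 alone lay below the parental arrays, and TKO1 lay near NTKO. All these values share the WT arrays. The 14 genes called higher in TKO1 there were SPIN4, ZC3H12B, IL2RG, MAGEE1, PGK1, DIAPH2, TCEAL4, AMMECR1, NKRF, STAG2, UTP14A, STK26, HMGB3 and LAGE3, named after their values were seen. They ran from 0.51 (PGK1, a glycolytic kinase) to 0.86 (MAGEE1, undetected in TKO2 and therefore at least 1.51-fold). The 13 others differed by less than 2-fold. STAG2, a subunit of the cohesin ring that holds sister chromatids together, read 10.0, 10.7 and 10.4 in TKO1 and 9.39, 9.63 and 9.63 in TKO2 (0.84 ± 0.17, adjusted p = 0.0281). AMMECR1 read 10.2, 10.4 and 10.4 in TKO1 and 9.51, 9.53 and 9.54 in TKO2 (0.79 ± 0.13, adjusted p = 0.00678). IL2RG, the common gamma chain of several interleukin receptors, differed by 0.68 (adjusted p = 0.0416). PGK1 and HPRT1, which are often used as constant reference genes, differed by 0.51 (adjusted p = 0.0394) and 0.43 (adjusted p = 0.0666; 0.00408 with the replicate block). The exception was TMSB15A, the 1 gene of the arm called lower. Counts of calls here depended on single arrays, with 1 higher without TKO1 replicate 2, 1 without TKO2 replicate 1, 0 without TKO2 replicate 2, 7 without TKO1 replicate 3, 23 without TKO1 replicate 1 and 28 without TKO2 replicate 3, while the median stayed between 0.38 and 0.42.

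A smaller shift of the same sign lay on the long arm of chromosome 18. The 98 genes from ROCK1 to PARD6G had a median difference of 0.21 (1.16-fold higher in TKO1), and 80 of them (81.6%) were higher in TKO1. Bins of neighbouring genes gave 0.15 from DSG4 to IER3IP1, 0.27 from SMAD2 to MALT1 and 0.24 from ZNF532 to PARD6G, while the bin from AFG3L2 to CDH2 gave 0.03. The 34 genes of the short arm had a median of 0.03. Long arm medians relative to the 6 TKO arrays were 0.03, 0.10 and 0.17 in TKO1 and −0.19, −0.09 and −0.04 in TKO2, without overlap but with a wider spread than on X. All 3 called members (3.06%, against 1.26% of all genes) were higher in TKO1, and with the block 14 were higher and 1 lower, where 2.8% and 2.96% of all genes were. They were MBP, described above, PHLPP1, a phosphatase that dephosphorylates AKT (6.36, 6.48 and 6.27 in TKO1 and 5.53, 5.39 and 5.17 in TKO2; 1.01 ± 0.19, adjusted p = 0.0152), and TCF4, a basic helix-loop-helix factor of the B lineage (0.65 ± 0.15, adjusted p = 0.0446). Medians of the other chromosomes lay between −0.03 and 0.04, and the largest bins elsewhere were 0.22 from H3C7 to ZSCAN26 on chromosome 6 and −0.21 from DBP to FCGRT on chromosome 19.

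**Figure D3:**
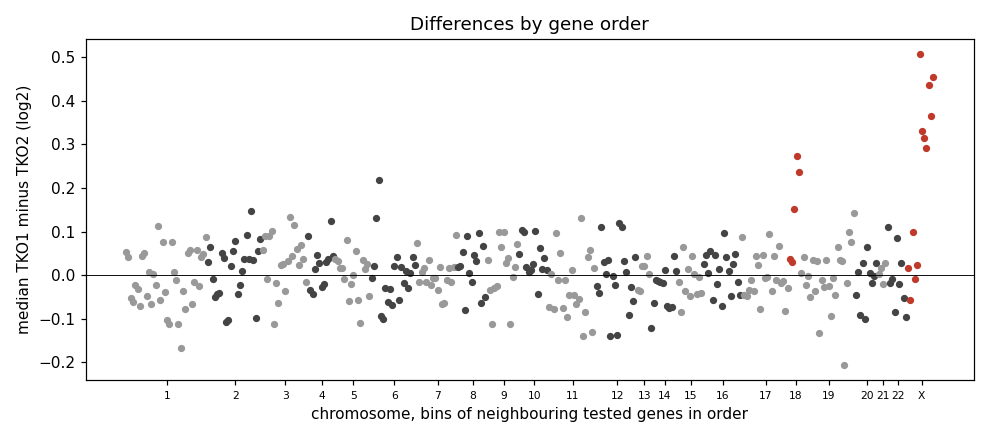
Median difference (TKO1 minus TKO2, log2) in bins of 25 or more neighbouring tested genes, in order along each chromosome, with chromosomes 18 and X in red. The X long arm bins lie between 0.29 and 0.51 and the distal 18 bins between 0.15 and 0.27, while bins on other chromosomes stay between −0.21 and 0.22.

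**Figure D4:**
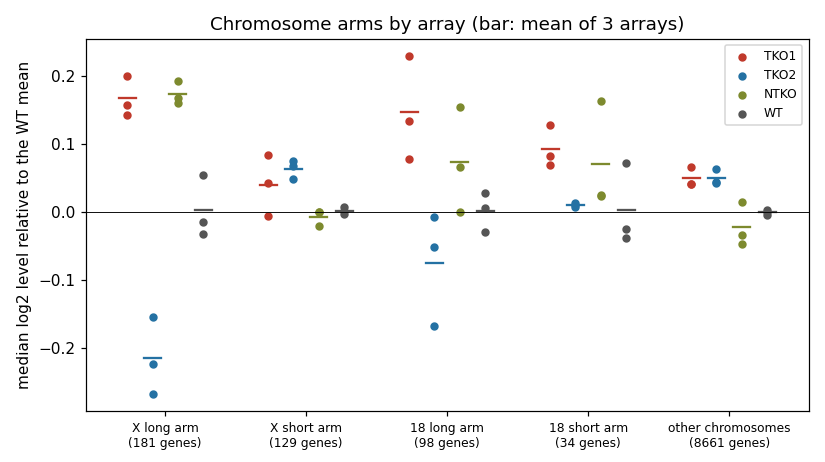
Median log2 level of each chromosome arm relative to the WT mean, 1 point per array, with bars at the mean of 3 arrays, for TKO1, TKO2, NTKO and WT. On the X long arm the TKO2 arrays (−0.27 to −0.15) lie below all others, and the genes of other chromosomes show no such gap between the clones.

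Outside chromosomes X and 18, 94 of 8661 genes were called, 44 higher and 50 lower in TKO1, against 1.26% of all genes. With the block 160 were higher and 254 lower there, against 2.8% and 2.96% of all genes. Also, 3 pairs of neighbouring tested genes were called in the same direction there, and they were picked out after their values were seen. CAV1 and CAV2, adjacent genes whose products coat caveolae, were both lower in TKO1 (−1.21 ± 0.14, adjusted p = 0.000503, and −1.16 ± 0.23, adjusted p = 0.0218). CAV1 read 9.22, 9.15 and 9.12 in TKO1 and 10.2, 10.5 and 10.4 in TKO2, with NTKO at 10.2 and WT at 9.93. PLAAT4 and PLAAT2, phospholipid acyltransferases on chromosome 11, differed by −0.97 and −1.04, and PCDH9, a protocadherin, and DACH1 on chromosome 13 by 1.29 and 1.91.

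Among gene groups, chemokines and their receptors had the highest median, 0.58 over 7 tested genes, of which 4 were higher in TKO1 and 0 called. With the replicate block 4 were called higher and 1 lower, where 2.8% and 2.96% of all genes were. Targets of ATF4 and stress regulators had the lowest median. ATF4 is a transcription factor whose translation increases under amino acid shortage or protein misfolding in the endoplasmic reticulum, and it drives genes for amino acid synthesis and uptake. Of 32 members 25 were tested, and all 25 were lower in TKO1, with a median of −0.41 against 0.01 over all genes tested. In all 3 were called lower (12% against 0.582% of all genes) and none higher, and with the replicate block 13 were called lower, where 2.96% of all genes were. Each array's median over the list, relative to the 6 TKO arrays, was −0.07, −0.50 and −0.14 in TKO1 and 0.35, 0.14 and 0.28 in TKO2, without overlap. TKO1 replicate 2 was the lowest, and without it 22 of 25 were lower with a median of −0.30 and 1 called. Without TKO2 replicate 1 also 1 was called, and none when all 12 arrays shared 1 spread. With WT as zero the same medians were 0.18, −0.20 and 0.13 in TKO1 and 0.60, 0.39 and 0.59 in TKO2, and 2.39, −0.19 and 2.39 in NTKO. Replicate 2 thus gave the lowest median within each of TKO1, TKO2 and NTKO. The replicate number itself passed for 6 of the 25 members, and for 976 of all 9103 genes tested.

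CTH, which makes cysteine from cystathionine, read 4.84, 4.79 and 4.74 in TKO1, where it was undetected, and 6.08, 6.36 and 6.14 in TKO2. It was at least 2.20-fold lower in TKO1 (−1.40 ± 0.18, adjusted p = 0.000854), and its NTKO arrays read 8.12, 4.57 and 8.25. With all 12 arrays in 1 fit it did not pass (adjusted p = 0.751). ATF3, a stress-induced transcription factor, read 6.34, 5.75 and 5.85 in TKO1 and 7.20, 6.91 and 7.18 in TKO2 (−1.12 ± 0.20, adjusted p = 0.0127). PHGDH, the first enzyme of serine synthesis, read 9.91, 8.85 and 9.78 in TKO1 and 10.6, 10.4 and 10.5 in TKO2 (−1.01 ± 0.22, adjusted p = 0.0429). Serine synthesis continues with PSAT1 (−0.41) and PSPH (−0.53), of which PSPH passed with the block alone (adjusted p = 0.163 without it and 0.00735 with it). DDIT4, an inhibitor of mTORC1 (−0.97, adjusted p = 0.112; 0.0229 with the block), DDIT3, which encodes CHOP (−0.84, adjusted p = 0.125; 0.00224 with the block), and CBS, the enzyme before CTH (−0.60, adjusted p = 0.201; 0.0129 with the block), had the same sign. ATF4 itself differed by −0.07 ± 0.10 (adjusted p = 0.862). Chaperones and other genes of the unfolded protein response gave a median of −0.16 with 0 of 25 called.

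Promoters of the ATF4 list were searched for TGATGNAA, the core of the element that ATF4 binds with C/EBP proteins, on both strands of the same 300-base windows. Of 25 tested members 23 had a promoter in the table, and 4 (CHAC1, SLC7A1, SLC1A5 and CEBPG) held a match, where 3.62% of all 35116 promoters did. None of the 3 called members was among them. The list was drawn up as targets of ATF4 and stress regulators, so its share of matches says nothing about the clone difference. The windows of CHAC1, a glutathione-degrading enzyme, and SLC7A1, a transporter of arginine and lysine, are shown 5′ to 3′ with the match in capitals, the first at chr15:40953221-40953520 (plus strand) and the second at chr13:29595639-29595938 (minus strand) of GRCh38.p14.
CHAC1: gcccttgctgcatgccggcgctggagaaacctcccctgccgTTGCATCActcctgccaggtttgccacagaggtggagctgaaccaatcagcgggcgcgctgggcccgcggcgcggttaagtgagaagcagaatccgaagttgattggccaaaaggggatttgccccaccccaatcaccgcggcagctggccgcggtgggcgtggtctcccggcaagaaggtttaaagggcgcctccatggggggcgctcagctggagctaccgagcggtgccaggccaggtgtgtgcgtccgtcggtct
SLC7A1: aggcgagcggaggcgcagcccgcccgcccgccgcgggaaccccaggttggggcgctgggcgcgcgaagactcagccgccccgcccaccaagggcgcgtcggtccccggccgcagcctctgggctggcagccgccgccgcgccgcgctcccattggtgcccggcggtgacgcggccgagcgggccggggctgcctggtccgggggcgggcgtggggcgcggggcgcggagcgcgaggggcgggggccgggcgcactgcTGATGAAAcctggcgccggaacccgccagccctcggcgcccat
The CHAC1 match lies on the opposite strand and that of SLC7A1 on the strand of the gene. CHAC1 read 5.92, 6.05 and 5.68 in TKO1 and 6.41, 6.42 and 5.99 in TKO2 (−0.39 ± 0.20, adjusted p = 0.558), and SLC7A1 read 9.38, 9.16 and 9.68 in TKO1 and 9.70, 9.68 and 10.1 in TKO2 (−0.41 ± 0.17, adjusted p = 0.395; 0.0203 with the block). A match is a run of letters and does not show that a factor binds there.

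Genes of cholesterol and fatty acid synthesis, which SREBP factors switch on when sterols run short, were mostly lower in TKO1. Of 22 tested 3 were higher in TKO1, against 51.6% of all genes, and the other 19 lower, with a median of −0.32. FADS1, a desaturase of polyunsaturated fatty acids, was the 1 member called, or 4.55% against 0.582% of all genes called lower (4.52, 4.63 and 4.65 in TKO1, where it was undetected, and 5.65, 5.96 and 5.78 in TKO2; at least 1.67-fold, −1.20 ± 0.18, adjusted p = 0.00277), and both clones lay far under NTKO (8.63, 7.80 and 8.58) and WT at 8.04. With the block 8 of 22 were called lower, against 2.96% of all genes, among them SCD, which makes monounsaturated fatty acids (−0.89, adjusted p = 0.0666; 0.00571 with the block), DHCR7, the last enzyme of cholesterol synthesis (−0.75, adjusted p = 0.110; 0.00219 with the block), and INSIG1, which retains SREBP in the endoplasmic reticulum (−0.68, adjusted p = 0.226; 0.0295 with the block). Per-array medians were −0.12, −0.50 and 0.01 in TKO1 and 0.06, 0.15 and 0.27 in TKO2. TKO1 replicate 2 was again the lowest, and without it the median was −0.22. The replicate number itself passed for 8 of the 22 genes, and for 976 of all 9103 genes tested.

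**Figure D5:**
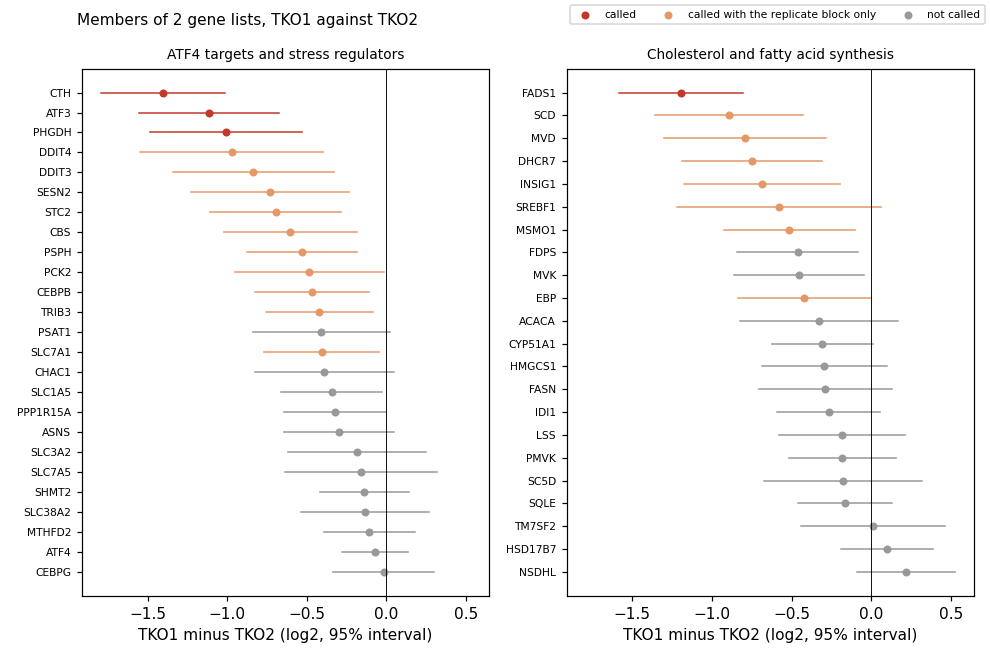
Difference between the clones (TKO1 minus TKO2, log2) with its 95% interval for 25 members of the ATF4 list and 22 of the cholesterol and fatty acid list. All 25 points on the left lie below 0, CTH, ATF3, PHGDH and FADS1 are called (red), and the members in orange pass with the replicate block alone.

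Annexins and S100 proteins, which bind calcium and membranes, included 2 of 12 called lower in TKO1 (16.7%, against 0.582% of all genes). ANXA1 read 4.54, 4.68 and 4.61 in TKO1, where it was undetected, and 6.37, 6.45 and 5.91 in TKO2 (at least 2.27-fold, −1.63 ± 0.20, adjusted p = 0.000613), with WT at 5.10 and NTKO at 11.2, 8.83 and 11.3. It did not pass with all 12 arrays in 1 fit (adjusted p = 0.182). S100A6 read 10.1, 9.48 and 9.74 in TKO1 and 10.6, 10.6 and 10.4 in TKO2 (−0.78 ± 0.16, adjusted p = 0.0315), and with the block, where 2.96% of all genes were lower, ANXA2 and S100A10 passed as well. Histone genes gave 29 of 31 higher in TKO1 with a median of 0.22, but 0 were called. With the block 4 were called higher, against 2.8% of all genes. This list also differed by replicate number, with a median of −0.29 for replicate 3 minus replicate 1.

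Single members of other lists were called, where 1.26% of all genes were. HEY1, a repressor that Notch signalling induces, read 6.73, 6.53 and 6.66 in TKO1 and 7.77, 8.11 and 7.68 in TKO2 (−1.22 ± 0.18, adjusted p = 0.00222), 1 of 10 Notch pathway genes tested. WNT11, a secreted WNT ligand, read 5.49, 4.93 and 5.29 in TKO1 and 6.27, 6.45 and 5.99 in TKO2 (1.99-fold lower in TKO1, adjusted p = 0.0327), 1 of 14 WNT pathway genes. PHLDA1, a gene induced by MAP kinase signalling, read 6.03, 6.84 and 5.75 in TKO1 and was undetected in TKO2 (at least 2.11-fold higher, adjusted p = 0.0124), 1 of 11 such genes. ADM, the vasodilator peptide adrenomedullin that hypoxia induces, averaged 9.89 ± 0.19 in TKO1 and 8.83 ± 0.16 in TKO2 (SD, n = 3 each; difference 1.06 ± 0.15, SE, adjusted p = 0.00222), and with PGK1, which also lies on the X long arm described above, it made 2 of 26 glycolysis and hypoxia genes. Among 18 plasma cell identity genes CAV1 was called. With the block 2 were higher in TKO1 (against 2.8% of all genes), the chemokine receptors CCR10 (1.04) and CXCR4 (0.58). Another 3 were lower (against 2.96%), CAV1, the BAFF and APRIL receptor gene TNFRSF17 (−0.43) and FKBP11 (−0.46). No call was made among 10 H3K36 methylation enzymes (median 0.14), 12 genes of Polycomb repressive complex 2 (0.07), 12 MHC class II genes (0.07), 37 MYC targets (0.04), 30 DNA replication genes (0.12), 32 mitosis genes (0.06) or 18 interferon response genes (−0.09). With the block HLA-DPA1, DKC1, BUB1 and TOP2A of these lists passed, each higher in TKO1, where 2.8% of all genes were. These single calls are not read as a result about the lists.

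Genes listed by EZH2 binding or by their response to an EZH2 inhibitor are set beside the 1.26% called among all genes. The lists come from other assays of TKO, NTKO and KMS11 cells, and which TKO clone was assayed is not given in those sources. Of genes bound in TKO only, 80 were tested and 1 was higher and 5 lower in TKO1 (7.5%). Of genes bound in NTKO only, 348 were tested, with 5 higher and 7 lower (3.45%), and of genes bound in both, 172 were tested, with 7 higher and 9 lower (9.30%). Among genes that an EZH2 inhibitor raised, 3 were higher and 6 lower of 87 for KMS11 (10.3%). For TKO, 2 were higher and 11 lower of 118 (11%). With the block 2 of these 118 were higher and 20 lower, where 2.8% and 2.96% of all genes were. Many members of these lists are near the detection limit, and a gene seen in 1 clone alone passed the filter through that clone. Among genes detected on all 6 arrays 83 of 8465 were called, and so were 4 of 60 bound in TKO only, 6 of 303 bound in NTKO only, 11 of 127 bound in both, 4 of 62 raised in KMS11 and 6 of 81 raised in TKO, where all 6 were lower in TKO1. Their leading members are those described above, with PLAG1, MBP, CAV1 and FADS1 bound in TKO only, FAM174B, COL9A2, DACH1 and TMOD1 in NTKO only, and ADAMTSL2, SPATS2L, TUBB2B and PHLDA1 in both. Of the inhibitor lists, BCHE, DACH1, ANXA1 and EPHB1 led in KMS11, and PLAG1, TMSB15A, CD72 and ANXA1 in TKO. EPHB1, an ephrin receptor, was higher in TKO1 (1.21 ± 0.22, adjusted p = 0.0118).

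How the clone difference compares with a difference between lines of unequal genotype was read from NTKO minus WT, which shares no array with it. There 137 genes (1.5%) passed, and 13 genes passed in both comparisons, 11.3% of the clone calls and 9.49% of the NTKO minus WT calls. Without NTKO replicate 2, however, 4014 genes (44.1%) passed between NTKO and WT and 73 were shared, 63.5% of the clone calls and 1.82% of the others. Each clone against WT gave far more calls than the clones against each other, 1859 for TKO1 minus WT and 1800 for TKO2 minus WT, in comparisons that share the WT arrays. Against NTKO the counts were 937 for TKO1 and 882 for TKO2, which share the NTKO arrays with replicate 2 among them.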

How the data were processed

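Total RNA of 4 KMS11 lines had been hybridised to 12 arrays, which were grouped by sample title. The authors exported the deposited intensity values from GenomeStudio, with no version named, background-subtracted and not normalised between arrays, with a deposited detection p-value per probe. A second deposited table holds the authors' normalised intensity. All 48803 probes were background corrected and quantile normalised over 12 arrays (neqc in limma 3.58.1, R 4.3.3, offset 16). Probes detected (p under 0.05) on all 3 arrays of TKO1 or of TKO2 were kept (14217; 11882 with 1 gene), and each of 9103 genes took its brightest. Of all probes 27578 had 1 gene in the platform annotation (27541 found in RefSeq, GRCh38.p14), 13 several and 21212 none.

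The 6 TKO arrays were fitted with 2 clone means (lmFit, eBayes with trend and robust hyperparameters, statmod 1.5.0), two-sided, and p-values were adjusted by Benjamini-Hochberg across the 9103 genes (called: under 0.05). Replicate numbers come from the titles. Deviations from the clone means of arrays with the same number correlated at 0.53, 0.10 and 0.53, so a fit with the number as a block is given where it changes a call. "At least" folds set the clone with no array detected at the lowest detected signal. Named genes are the 12 highest and 12 lowest called genes with arrays that do not overlap and detection on all 3 arrays of the higher clone, NSD2, genes measured by quantitative PCR, and up to 4 called members per list. Others were named after their values were seen. Of 3435 symbols read from the study's EZH2 lists 2989 were current, 324 older ones were matched and 122 were not. The list of genes raised in TKO was read in part only. The members and lists were chosen with earlier results of these data known. Chromosome arms were split after the data were seen, at SPIN4 and ROCK1. Precision is limited by the number of arrays, and the fits were tested on simulated data. Slides were not analysed here.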

Additional observations from a re-analysis of the deposited data

Results flagged for a closer look

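Probes that the platform annotation ties to no gene or to several were outside all comparisons of genes. Of 2335 such probes that passed the detection filter 12 were called between the clones over all kept probes, 9 higher and 3 lower in TKO1. They are unnamed here.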

How the results depend on the processing

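The count of 115 called genes (62 higher, 53 lower, 63 over 2-fold, 14 members of the gene lists other than those of EZH2) stayed within 1.5 times under no background correction, median centring, cyclic loess, normalization of the TKO arrays alone, the authors' table, no filter on dim probes and a filter over any line. With the replicate block it was 524 (255 higher, 269 lower, 71 list members); of the genes named for size it changed no call. With all 12 arrays in the fit 27 genes were lower and 7 list members called. Requiring detection on all 6 arrays gave 65 (36 higher, 29 lower, 34 over 2-fold, 5 list members) among 8467 genes. In the main fit 83 of the called genes were detected on all 6 arrays, so some lost their call on refitting. The methods' t-test gave 36 genes over 2-fold and 9 list members at its threshold, and 2 (1 higher, 1 lower, both over 2-fold, 0 list members, against 835 genes at an unadjusted p under 0.05) after Benjamini-Hochberg. Leaving out 1 array moved the calls over 50 to 175 genes, those higher over 28 to 91, those lower over 22 to 91, those over 2-fold over 47 to 96 and list members over 7 to 22. The X long arm median was 0.45 with median centring and 0.44 on the authors' values. The 18 long arm, ATF4 and cholesterol medians kept their sign under every alternative run. Of 395 values of the 24 leading genes 27 lost their call and none changed sign, 23 of the losses under the t-test. Where no cause is given, the cause was not tested.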
